A study of Mus musculus with 48 samples.

Results

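The levels of 10 genes of the circadian clock and its first-line output were followed through RNA-seq libraries of the mouse hindbrain and hypothalamus after injection of gut-peptide receptor agonists. The members are the rows of the count table whose Ensembl identifiers carry the symbols Per1, Per2, Per3, Nr1d1, Nr1d2, Ciart, Dbp, Tef, Arntl and Clock, and they are 10 of 38293 identifiers. Symbols came from GENCODE M21, which matched 36345 of the identifiers. All 10 had enough reads to be tested in every comparison.

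All mice were C57/Bl6 males, 9 weeks old, kept on standard chow and fasted for 6 h. The injection into the peritoneum, at 10 µL per g body weight, held saline, AC3174 at 1 µg/kg (an agonist of the GLP-1 receptor), AC170222 at 2.5 µg/kg (an agonist of the CCK receptor), or both drugs together. The labels also write AC710222 and exenatide in the treatment text, without tying either to a library. The sources used here give neither the doses inside the combination, nor the time after injection, the clock time of dissection or the number of mice behind a library. From the dorsovagal complex (DVC, the brainstem centre of vagal feeding signals) and the mediobasal hypothalamus (MBH) the study sequenced a small portion of cleared homogenate as input, and the RNA pulled down from the remainder with an antibody against ribosomal protein S6 phosphorylated at residues 240/244 (IP), a mark that rises on ribosomes of active cells. Region, kind and treatment make 16 groups of 3 libraries, 48 in all. Nothing says that the 3 libraries of a group came from separate animals, so p-values measure the spread between libraries, which may be partly technical. In bulk tissue, fewer cells of a type and less RNA per cell cannot be told apart.

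The clock is a feedback loop of transcription. ARNTL (BMAL1) and CLOCK form a dimer that binds E-boxes and switches on the Period genes, the nuclear receptors NR1D1 and NR1D2 (REV-ERB alpha and beta), Ciart and the leucine-zipper factors Dbp and Tef. Period proteins feed back on the dimer, CIART represses its targets, REV-ERBs silence Arntl through ROR elements, and DBP and TEF act on D-boxes, so that Arntl and its targets peak at opposite times of day in most tissues. Because a transcript of this loop changes over the day, its level also reads the hour at which a tissue was taken.

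Such elements were looked for in RefSeq promoter windows, which reach from 250 bases before to 50 bases after a start site, in GRCm38.p6 coordinates. Windows were found for 9 of the 10 members (14 windows), and Per2 had none. The E-box CACGTG was present for Ciart, Per1 and Tef, in 4 of the 14 windows, against 7.15% of all 32851 windows. A D-box (TTATGTAA or TTACGTAA, either strand) was present for Per3 alone, against 1.06% of all windows, and a ROR element (TAGGTCA or TGGGTCA, either strand) for Arntl alone, against 6.45%. The cAMP element TGACGTCA was in none of the 14 windows and in 1.79% of all. A match of letters is a description only, and Clock, Dbp, Nr1d1 and Nr1d2 had none of these letters within the window. The sequences below show where these elements sit in the members that have them, with the element in capitals, 5′ to 3′ on the strand of the gene.
Ciart, chr3:95882312-95882371, minus strand, E-box at -116 from the start site: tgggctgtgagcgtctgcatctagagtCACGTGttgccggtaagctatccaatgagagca
Ciart, chr3:95882254-95882313, minus strand, E-boxes at -58 and -44: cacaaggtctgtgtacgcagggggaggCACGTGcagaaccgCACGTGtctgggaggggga
Per1, chr11:69098756-69098815, plus strand, E-box at -166: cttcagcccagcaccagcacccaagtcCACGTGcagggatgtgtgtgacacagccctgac
Tef, chr15:81811249-81811308, plus strand, E-box at -138 of the start site at 81811414: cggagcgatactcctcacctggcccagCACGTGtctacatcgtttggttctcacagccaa
Per3, chr4:151044837-151044896, minus strand, D-box at -205: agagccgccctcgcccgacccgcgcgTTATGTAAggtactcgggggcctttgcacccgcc
Per3, chr4:151044790-151044849, minus strand, D-box at -158: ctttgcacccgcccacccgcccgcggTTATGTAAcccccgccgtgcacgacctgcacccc
Arntl, chr7:113207531-113207557, plus strand, ROR element at 30 bases past the start site: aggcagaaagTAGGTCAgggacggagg
Tef has a second E-box, at -127 of its upstream start site. The Per1 and Tef windows fall inside the longer gene models of GENCODE M21, in introns, the Ciart windows in an intron of the antisense gene C920021L13Rik and the Per3 windows in an intron of Camta1.

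In GRCm38 the negative limb lies at chr11:69095217-69109960 (Per1, ENSMUSG00000020893), chr1:91415982-91459324 (Per2, ENSMUSG00000055866), chr4:151003652-151044665 (Per3, ENSMUSG00000028957) and chr3:95878503-95882251 (Ciart, ENSMUSG00000038550). The REV-ERB genes lie at chr11:98767932-98775333 (Nr1d1, ENSMUSG00000020889) and chr14:18204054-18239127 (Nr1d2, ENSMUSG00000021775). The output factors lie at chr7:45705088-45710203 (Dbp, ENSMUSG00000059824) and chr15:81802421-81826863 (Tef, ENSMUSG00000022389), and the positive limb at chr7:113207465-113314126 (Arntl, ENSMUSG00000055116) and chr5:76209868-76304792 (Clock, ENSMUSG00000029238). Exons of 4 members overlap a gene on the other strand: Nr1d1 shares 263 bases with Thra, Dbp 539 bases with Sphk2, Tef 193 bases with Gm17597 and Arntl 33 bases with Gm45355. The library kit does not mark strand, so reads from these shared bases cannot be told apart.

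DVC libraries held 102116189 to 191252522 counts (IP) and 29492622 to 95079227 counts (input), and MBH libraries 21782798 to 73940674 (IP) and 36542586 to 80084056 (input). Levels are given as CPM (counts scaled to a common library total). Fewer than 12000 genes were detected in 1 DVC IP library (AC3174 replicate 3, 9925 genes) and in 5 MBH IP libraries (6285 to 11812). Among MBH inputs saline replicate 2 stood apart, with 12853 genes detected against at least 15774 in the other 11. The common biological coefficient of variation was 0.92 for DVC input and 1.12 for MBH input, against 1.60 and 1.81 for the IP libraries of the same regions. Among the region markers, the DVC markers Hoxb5, Hoxa5 and Gcg had medians of 168, 105 and 7.54 CPM in DVC input and were at 0 in all 12 MBH inputs, while Th (57.8 in DVC input, 170 in MBH input) and Calcr (0.16 and 3.91), listed as DVC markers too, had their higher median in the MBH. The 9 MBH markers measured (Pomc, Agrp, Nr5a1 and others) had 341 CPM in MBH input and 50.6 in DVC input.

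All 10 members were present in every DVC input library. Per kilobase of exon, Tef (41.1 ± 6.62 CPM per kb, SD, n = 12) and Nr1d2 (40.05 ± 8.54) stood highest and did not differ beyond their spread, followed by Nr1d1 (27.1 ± 5.43), Dbp (20.3 ± 2.18) and Ciart (12.6 ± 3.69). The remaining members formed a low tier of overlapping values: Clock (3.88 ± 1.17), Per1 (3.602 ± 0.87), Per2 (3.52 ± 1.59), Arntl (2.26 ± 0.81) and Per3 (2.06 ± 1.02). The order in MBH input was similar at the top, with Tef (55.0 ± 10.7 CPM per kb), Nr1d1 (37.0 ± 6.44), Nr1d2 (29.0 ± 9.66), Dbp (19.2 ± 10.7) and Ciart (16.98 ± 10.9). Below them came Arntl (6.22 ± 2.92), Per2 (5.96 ± 4.33), Per1 (5.10 ± 3.49), Per3 (3.42 ± 1.54) and Clock (2.89 ± 1.31), again with overlapping spreads. In both regions the 2 output factors and the 2 REV-ERB genes stood above Arntl and Clock on the per-kilobase scale.

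Dbp was the steadiest member in DVC input. Its 12 libraries ran from 52.2 to 75.9 CPM with a median of 59.6, a coefficient of variation of 10.7%, whereas its 12 DVC IP libraries ran from 1.25 to 99.3 CPM. Per2 was the most variable member in DVC IP, at 0 in 3 of 12 libraries and up to 62.7 CPM. In MBH IP, 6 members were at 0 in 1 to 3 libraries, and AC3174 replicate 3, the shallowest library of the series, held 0 CPM for 5 of them. The plot of every library shows the members on 1 scale.

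**Figure D1:**
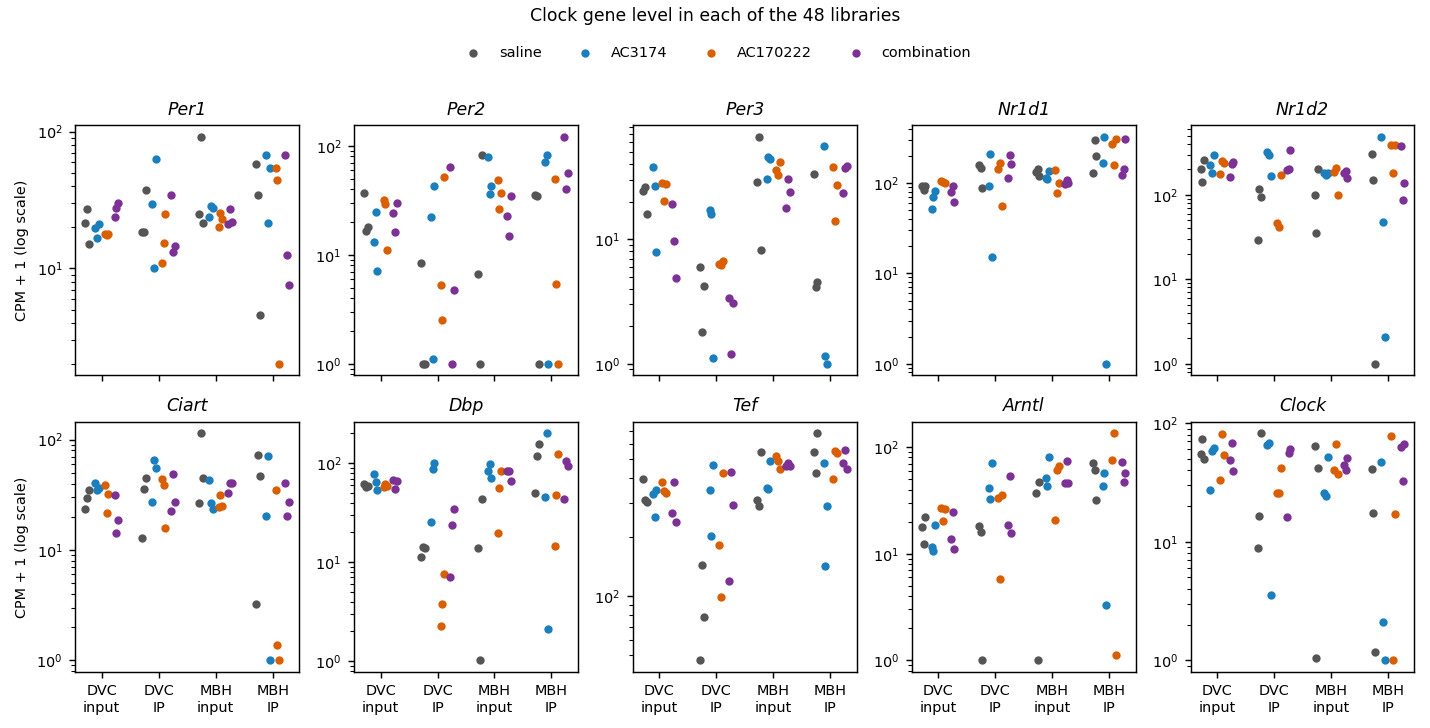
Level of each clock gene in the 48 libraries, as CPM + 1 on a log axis, by region and kind of library (x axis) and coloured by treatment; each point is 1 library. In DVC input Dbp points lie close together, between 52.2 and 75.9 CPM, while the IP libraries of both regions spread widely and reach 0 for several genes.

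MBH input saline replicate 2 carried an unusual set of clock values. It held the highest level among 12 MBH inputs of Per1 (90.6 CPM), Per3 (65.4) and Ciart (113), and the lowest of Arntl (0), Per2 (0), Clock (0.0543) and Dbp (0.0181). Of these, Arntl and Dbp lay at 36.5 and 12.8 CPM in saline replicate 1 and at 46.1 and 42.7 in saline replicate 3. Region values of these genes are given below with and without saline replicate 2. The region fits without it leave out saline replicate 2 of both regions.

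Nr1d1 and Tef were lower in the DVC than in the MBH in input RNA, each in 10 of 12 same-numbered pairs. Nr1d1, which encodes REV-ERB alpha, ran from 50.1 to 105 CPM in DVC input (median 86.9) and from 77.3 to 143 in MBH input (median 110), so that the ranges overlapped. Its fitted log2 difference was -0.50 ± 0.10 (SE), with an edgeR adjusted p of 0.00129. Tef, a D-box factor, ran from 238 to 397 CPM in DVC input (median 332) and from 288 to 543 in MBH input (median 462), with a log2 difference of -0.46 ± 0.11 and an edgeR adjusted p of 0.00485. Both ranges overlapped, with the upper end in the MBH. These 2 of 10 members compare with 10.2% of 18576 genes called lower in the DVC and 21.9% called in either direction, so the count is close to the background. The members' median log2 difference was -0.48 against 0.10 over all genes.

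Thra, on the other strand of Nr1d1, moved alike between the input libraries (log2 difference -0.50 ± 0.09, edgeR adjusted p = 0.000286), and the share of its reads in the Nr1d1 count was not tested. Arntl, the positive-limb partner of CLOCK, ran from 9.51 to 25.8 CPM in DVC input (median 17.2) and from 0 to 79.1 in MBH input (median 45.4). It was lower in the DVC in 10 of 12 pairs, and the one MBH library at 0 was saline replicate 2. The log2 difference of Arntl was -1.49 ± 0.54 (edgeR adjusted p = 0.0565) over all libraries and -1.58 (adjusted p = 7.34e-05) without replicate 2 of saline in both regions. Per3 (log2 difference -0.82 ± 0.32, adjusted p = 0.0801), Per1 (-0.49 ± 0.21, 0.109) and Ciart (-0.41 ± 0.22, 0.201) lay on the same side and did not pass the edgeR test. Without saline replicate 2 they came to -0.63, -0.30 and -0.22. Per2 had -0.77 ± 0.61 (adjusted p = 0.429), and its side changed with the processing, at -0.86 without saline replicate 2, -0.05 with the replicate block, 0.12 without saline replicate 3 and 0.19 with limma-voom. Nr1d2 lay on the other side, at 0.45 ± 0.21 (edgeR adjusted p = 0.139), higher in the DVC in 10 of 12 pairs, as did Clock (0.39 ± 0.48) and Dbp (0.24 ± 0.47). Without saline replicate 2 these 3 were at 0.39, 0.20 and 0.11.

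Summed markers of neighbouring clock-bearing tissue were higher in MBH input than in DVC input. The 10 suprachiasmatic markers, which label the central pacemaker of the hypothalamus, summed to a median of 182 CPM in MBH input (103 to 268) and 26.1 in DVC input (22.5 to 39.0). Single markers differed: Vip (median 0 CPM in MBH input, 4.74 in DVC input) and Grp (0.75 and 1.81) went the other way. Vip was at 0 in 10 of 12 MBH inputs and Nms in 7 of 12, while Avp, which other hypothalamic neurons also make, had a median of 79.9 CPM. The 6 markers of pituitary and pars tuberalis summed to 46.8 CPM in MBH input (8.86 to 110) and 0.16 in DVC input (0 to 2.88). The part of either tissue in the region differences was not tested.

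In the pull-down, Dbp and Tef were lower in the DVC than in the MBH. Dbp ran from 1.25 to 99.3 CPM in DVC IP (median 13.01) and from 1.10 to 199 in MBH IP (median 71.0), and was lower in the DVC in 11 of 12 pairs. The exception was AC3174 replicate 3, with 99.3 CPM in the DVC and 1.10 in the MBH library of 6285 genes. The log2 difference of Dbp was -2.37 ± 0.61 (edgeR adjusted p = 0.0276), and that of Sphk2, on the other strand, 0.79 ± 0.84 (adjusted p = 0.801). Tef ran from 46.2 to 465 CPM in DVC IP (median 192) and from 142 to 675 in MBH IP (median 477), with a log2 difference of -1.09 ± 0.28 (adjusted p = 0.0278) and lower DVC values in 10 of 12 pairs. In this comparison 2.79% of 17230 genes were called lower and 5.89% in either direction, and the members' median was -0.87 against 0.11 over all genes.

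Both calls were close to the threshold. Leaving out 1 replicate number at a time, Dbp kept its call in 3 of 12 fits (edgeR adjusted p 0.00453 to 0.109) and Tef in 4 of 12 (0.0120 to 0.0896), and without the IP libraries under 12000 genes Dbp came to -1.59 (adjusted p = 0.0835) and Tef to -1.20 (0.0670). With the replicate number as a block, Dbp was at -2.14 (adjusted p = 0.211) and Tef at -1.20 (0.0436). Per3 lay at -2.38 ± 1.02 (edgeR adjusted p = 0.205) over all libraries and at -2.89 (0.0256) without the sparse ones. The other 7 members had adjusted p-values of 0.643 or more.

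Within the DVC, Dbp and Per3 were lower in the pull-down than in input. Per3 was lower in IP than in the input of the same number in 12 of 12 pairs. Its DVC input libraries held from 3.91 to 37.3 CPM (median 21.3) and its IP libraries from 0.103 to 16.1 (median 4.07). The log2 difference was -2.21 ± 0.61 (edgeR adjusted p = 0.0149), and with the replicate number as a block it was -2.64 with an adjusted p of 0.0503. Leaving out AC170222 replicate 1 also took Per3 just past the threshold (adjusted p = 0.05004), and its log2 difference without any 1 replicate stayed between -2.29 and -1.98.

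Dbp was lower in DVC IP than in DVC input in 10 of 12 pairs, by a log2 difference of -1.92 ± 0.31 (edgeR adjusted p = 0.000422). The 2 exceptions were AC3174 replicate 2 (86.1 CPM in IP, 63.9 in input) and AC3174 replicate 3 (99.3 and 52.2). Saline IP libraries held 10.3, 13.1 and 12.9 CPM where the saline inputs held 60.9, 57 and 58. Those of AC170222 held 1.25, 2.78 and 6.52 CPM against inputs of 56, 61.3 and 58.3, and those of the combination 6.12, 22.7 and 33.3 against 66.5, 53.6 and 65.1. All 9 IP libraries without AC3174 as the single drug therefore lay below every DVC input, and the AC3174 libraries straddled them. The Dbp call held in all 12 fits without 1 replicate number (-2.04 to -1.69, adjusted p 0.000435 to 0.0039) and with the replicate block (-2.11, adjusted p = 0.0104). Sphk2, which shares exon bases with Dbp on the other strand, had a log2 difference of 0.55 ± 0.59 (adjusted p = 0.638).

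Both calls were on the lower side, where 13.6% of 18465 genes were called, beside 6.8% on the higher side and 20.4% in all. The members' median of -0.51 lay near that of all genes (-0.37), so the count of 2 in 10 is close to the background. Nr1d1 was higher in IP in 9 of 12 pairs (log2 difference 0.65 ± 0.29, edgeR adjusted p = 0.123). Without AC3174 replicate 3, its IP library (9925 genes) and its input together, the Nr1d1 difference was 0.87 with an adjusted p of 0.00403. Arntl was higher in 10 of 12 pairs (0.57 ± 0.65, adjusted p = 0.66). Tef (-0.59 ± 0.25, 0.104), Nr1d2 (-0.56 ± 0.25, 0.137), Clock (-0.47 ± 0.44, 0.565), Per2 (-0.71 ± 1.12, 0.799), Ciart (0.34 ± 0.30, 0.519) and Per1 (0.20 ± 0.33, 0.828) did not pass.

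**Figure D2:**
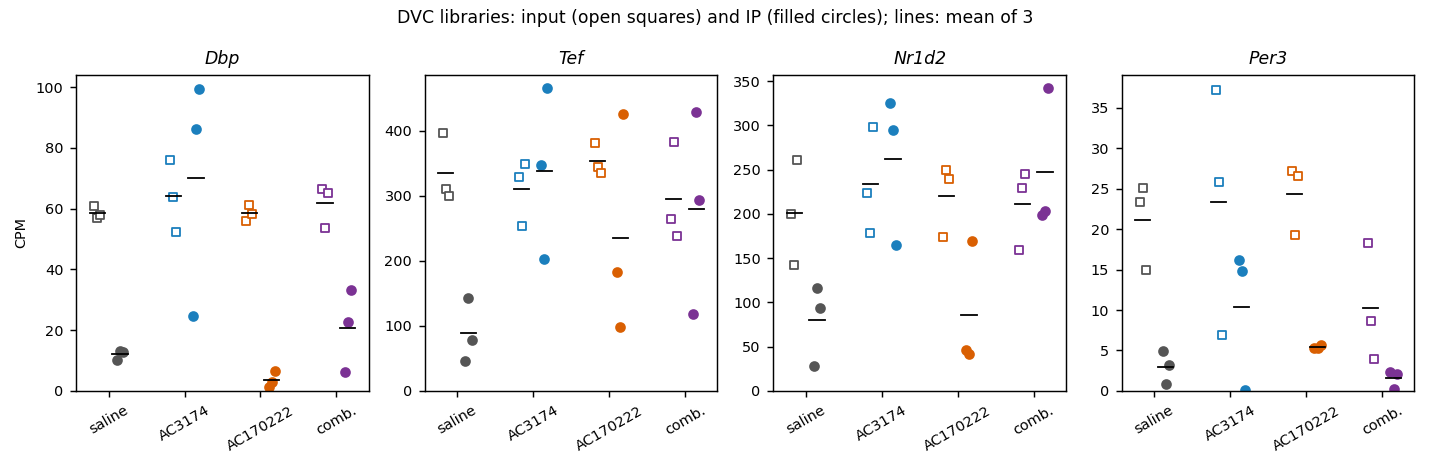
CPM of Dbp, Tef, Nr1d2 and Per3 in the DVC by treatment, with input libraries as open squares, IP libraries as filled circles and lines at the mean of 3. Dbp inputs stay between 52.2 and 75.9 CPM while saline IP libraries sit at 10.3 to 13.1, and Per3 IP values lie below the inputs in most libraries.

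Markers of cell types also differed between the DVC pull-down and input. The 8 neuron markers summed to a median of 27454 CPM in IP (14102 to 34677) and 12664 in input (11429 to 14068). The 8 oligodendrocyte markers summed to 2179 CPM in IP (1575 to 7079) and 7803 in input (6293 to 9356), and the 8 microglia markers to 15.5 (0 to 46.8) and 83.6 (56.4 to 97.5). Astrocyte markers stood at 6468 (3671 to 14738) in IP and 4211 (3513 to 5100) in input. The part of these shifts in the lower Dbp and Per3 was not tested.

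In the MBH no member passed the edgeR test of IP against input, where 0.452% of 17461 genes were called, 0 members had an unadjusted p under 0.05, and DESeq2 and limma-voom also called 0 members. Over all genes, 1976 had an unadjusted p under 0.05, DESeq2 called 1846 and limma-voom called 493. The MBH IP libraries of Dbp ran from 1.10 to 199 CPM and its inputs from 0.0181 to 96.9, with a log2 difference of 0.70 ± 0.69 (adjusted p = 0.977). Dbp was higher in IP in 7 of 12 pairs. Nr1d1 was higher in 10 of 12 pairs, as the largest member difference (0.81 ± 0.58, adjusted p = 0.815). Per3 (-0.61 ± 0.79) was called in 1 of the alternative fits, without AC3174 replicate 1, at -2.60 (adjusted p = 0.0332).

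Whether the pull-down differed between regions was tested directly. The IP-to-input log2 difference of Dbp in the DVC minus that in the MBH was -2.57 ± 0.79 (edgeR adjusted p = 0.0523), just outside the threshold. Among the members 0 were called, against 4.39% of 19416 genes, 1 (Dbp) had an unadjusted p under 0.05, limma-voom called 1 (Dbp) and DESeq2 called 2 (Dbp and Tef). Over all genes, 2601 had an unadjusted p under 0.05, limma-voom called 1623 and DESeq2 called 3270. The Dbp value passed with DESeq2 size factors in edgeR (-2.88, adjusted p = 0.0311), with a library-set covariate (-2.74, 0.0304) and when AC3174 replicate 3 (adjusted p = 0.0236), saline replicate 2 (0.0467) or saline replicate 3 (0.0452) was left out, and it was -2.54 (adjusted p = 0.361) with the replicate block and -1.81 (0.150) without the sparse IP libraries. The latter fit called Per3 (-2.06, 0.0466) and Nr1d2 (-1.44, 0.0371) instead. The library-set term was shared by input and IP of both regions, so that covariate cannot adjust for a set effect on the pull-down.

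**Figure D3:**
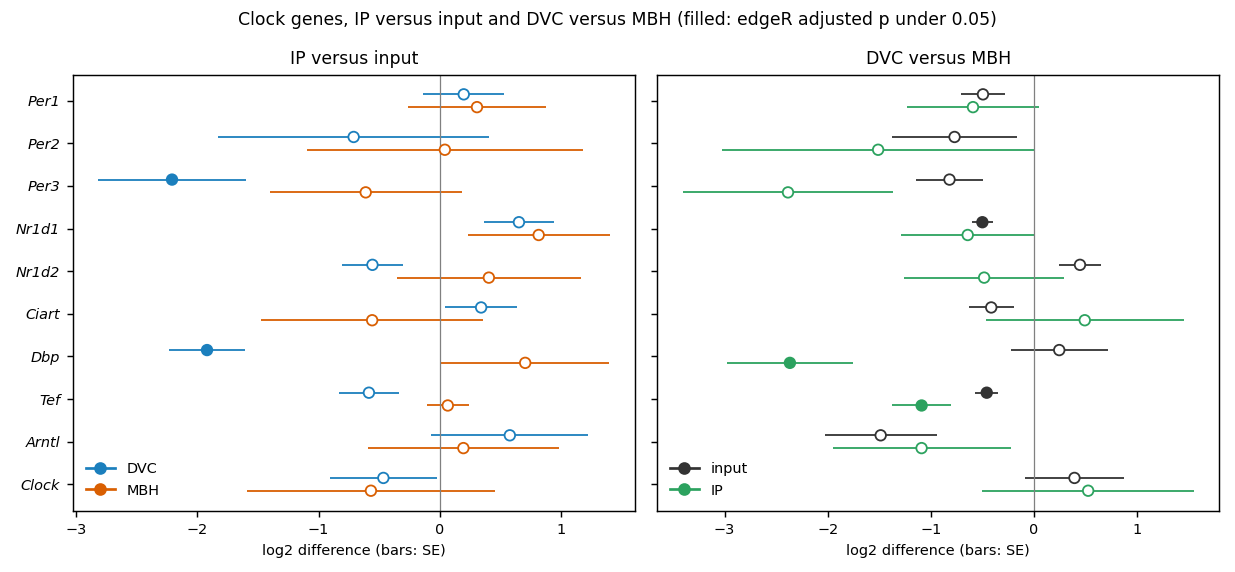
Fitted log2 differences of the 10 members with their SE: IP versus input in each region (left) and DVC versus MBH in each kind of library (right), with filled points for an edgeR adjusted p under 0.05. Dbp and Per3 are filled for the DVC pull-down, Nr1d1 and Tef for the region difference in input, and Dbp and Tef for the region difference in IP.

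Effects of the drugs were compared within each region and kind of library, as 6 comparisons of 2 treatments in each and 24 in all. Across these 240 member tests edgeR called 0 members, and it called 0% of the genes tested in each of the 24. At an unadjusted p under 0.05 there were 13 member tests (9 for the DVC pull-down, 3 for DVC input, 1 for MBH input and 0 for MBH IP), DESeq2 called 2, both of Dbp in DVC IP, and limma-voom called 0. Each of these sets holds 60 member tests. Over all genes, 397 to 1041 of 15815 had an unadjusted p under 0.05 in a DVC IP comparison, and 731 to 940 of 17477 in DVC input. The ranges were 376 to 1427 of 16622 genes in MBH input and 127 to 402 of 14766 in MBH IP. DESeq2 called 387 to 1144 genes in a DVC IP comparison. The 3 comparisons with saline share the saline libraries. Sets of 3 against 3 libraries cannot reach an exact permutation p below 0.1, so the fits across all genes carry the tests.

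Library naming bears on these comparisons. Number pairs in the library names (01-02, 03-04 and 05-06) mark 3 library sets, whose meaning the labels do not give. Saline and AC170222 have 2 libraries of the first set and 1 of the second, and AC3174 and the combination have 1 of the second and 2 of the third, so that sets are balanced between saline and AC170222 and between AC3174 and the combination. In the comparisons across these pairs, drug and set can be told apart only through the second set, with 1 library per treatment. For the differences across the pairs that are described most closely, a value with the set as a covariate is also given.

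In DVC IP, all AC3174 values of Dbp, Tef, Nr1d2 and Arntl lay above all saline values, although none passed the edgeR test. Dbp held 10.3, 13.1 and 12.9 CPM with saline and 24.7, 86.1 and 99.3 with AC3174, a mean of 12.1 ± 1.55 (SD, n = 3) against 70.0 ± 39.8. Tef held 46.2, 143 and 77.7 CPM with saline and 348, 202 and 465 with AC3174. Nr1d2 held 28.5, 116 and 93.9 CPM with saline and 325, 295 and 164 with AC3174, and Arntl 17.2, 14.9 and 0 against 40.7, 31.9 and 70.7. The highest Dbp, Tef and Arntl values came from AC3174 replicate 3, the DVC IP library with 9925 genes detected. The groups did not overlap for these 4 of 10 members, each higher with AC3174, against 3.98% of 15815 genes that were higher without overlap and 7.99% in either direction.

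On the log2 scale the AC3174 differences in DVC IP were 2.54 ± 1.01 for Dbp (unadjusted p = 0.0292), 1.95 ± 0.67 for Tef (0.0140) and 1.72 ± 0.66 for Nr1d2 (0.0251), each with an edgeR adjusted p of 0.677, and 2.18 ± 1.81 for Arntl (adjusted p = 1). Of the 10 members 9 had a positive difference, with a median of 1.76 against -0.02 over all genes, and Nr1d1 was the exception (-0.31 ± 0.75). Without AC3174 replicate 3 the differences were 2.18 for Dbp, 1.63 for Tef, 1.96 for Nr1d2 and 1.77 for Arntl. DESeq2 called Dbp (adjusted p = 0.0195) among 7.23% of genes. With the library set as a covariate the differences were 0.23 ± 1.22 for Dbp, 0.93 ± 0.94 for Tef, 0.87 ± 0.87 for Nr1d2 and 2.83 ± 3.56 for Arntl. Within the second set, where each treatment has 1 library, Dbp was 12.9 CPM with saline and 24.7 with AC3174, and Tef 77.7 and 348.

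In DVC input Dbp stood at 58.6 ± 2.01 CPM in saline and 64.0 ± 11.9 in AC3174 (log2 difference 0.14 ± 0.18, edgeR adjusted p = 1). Tested as a change of the IP-to-input ratio, AC3174 gave 2.37 ± 0.87 for Dbp (edgeR adjusted p = 0.367) and 2.01 ± 0.70 for Tef (0.357), and with the set as a covariate 2.15 and 2.00. That term is shared by input and IP, which hold the same sets, so it cannot adjust for set effects on the pull-down. All 10 members were on the positive side, with a median of 1.52 against -0.01, but 0 passed, against 0.0379% of 18465 genes. An unadjusted p under 0.05 was reached by 2 members and by 1921 of all genes. DESeq2 called Dbp there (adjusted p = 0.0284) as 1 of 1904 genes, and limma-voom called 0 members and 29 genes. For the ratio change with AC170222 and with the combination 0 members passed as well, against 0.0271% and 0.0379% of genes. An unadjusted p under 0.05 was reached there by 1 member each, beside 1665 and 1764 of all genes. Neuron markers in DVC IP summed to 14102 to 32939 CPM with AC3174 and 19659 to 34677 with saline, and oligodendrocyte markers to 1575 to 7079 and 2209 to 3237, and their part in the differences was not tested.

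With AC170222 alone the Dbp values in DVC IP lay on the other side of saline, at 1.25, 2.78 and 6.52 CPM (mean 3.52 ± 2.71). All 3 lay below all 3 saline libraries, where 2.75% of 15815 genes were lower without overlap, and the log2 difference was -1.80 ± 0.99 (edgeR adjusted p = 0.867). Per3 held 4.94, 0.8 and 3.21 CPM with saline and 5.34, 5.26 and 5.67 with AC170222, all higher, where 6.87% of genes were higher without overlap. Tef held 182, 98.4 and 426 CPM, overlapping saline, with a log2 difference of 1.39 ± 0.66 (adjusted p = 0.852). Nr1d2 (45.6, 41.1 and 169 CPM) was close to saline, with a difference of 0.09 ± 0.65.

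The 2 single drugs were set against each other after these values had been seen. Dbp differed by 4.34 ± 1.10 (AC3174 higher, unadjusted p = 0.0023, edgeR adjusted p = 0.993) and the groups did not overlap, where 4.63% of genes were higher without overlap. DESeq2 called it (adjusted p = 3.32e-06), among 4.23% of genes, and limma-voom called 0 members. With the library set as a covariate the Dbp difference was 2.29 ± 1.13, and in the second set Dbp was 24.7 CPM with AC3174 and 6.52 with AC170222. Nr1d2 differed by 1.64 ± 0.66 (edgeR adjusted p = 0.993), and by 1.12 with the set as a covariate.

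With the combination Nr1d2 held values that overlapped those of AC3174, at 199, 203 and 342 CPM (mean 248 ± 81.4), all above saline, where 6.76% of genes were higher without overlap. The log2 differences from saline were 1.67 ± 0.66 for Nr1d2 and 1.69 ± 0.66 for Tef (edgeR adjusted p = 0.817 for each). A covariate for the library set brought these to 0.83 and 0.52. Tef held 118, 429 and 293 CPM. Dbp held 6.12, 22.7 and 33.3 CPM (mean 20.7 ± 13.7), between the single drugs, with a log2 difference from saline of 0.80 ± 0.96 that became -1.57 with the set as a covariate. Against AC170222 alone the combination differed by 2.60 ± 1.01 in Dbp and 1.58 ± 0.66 in Nr1d2 (edgeR adjusted p = 1), or 0.48 and 1.07 with the set as a covariate. Against AC3174 alone it differed by -1.74 ± 0.98 in Dbp and -0.05 ± 0.65 in Nr1d2 (adjusted p = 1).

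**Figure D4:**
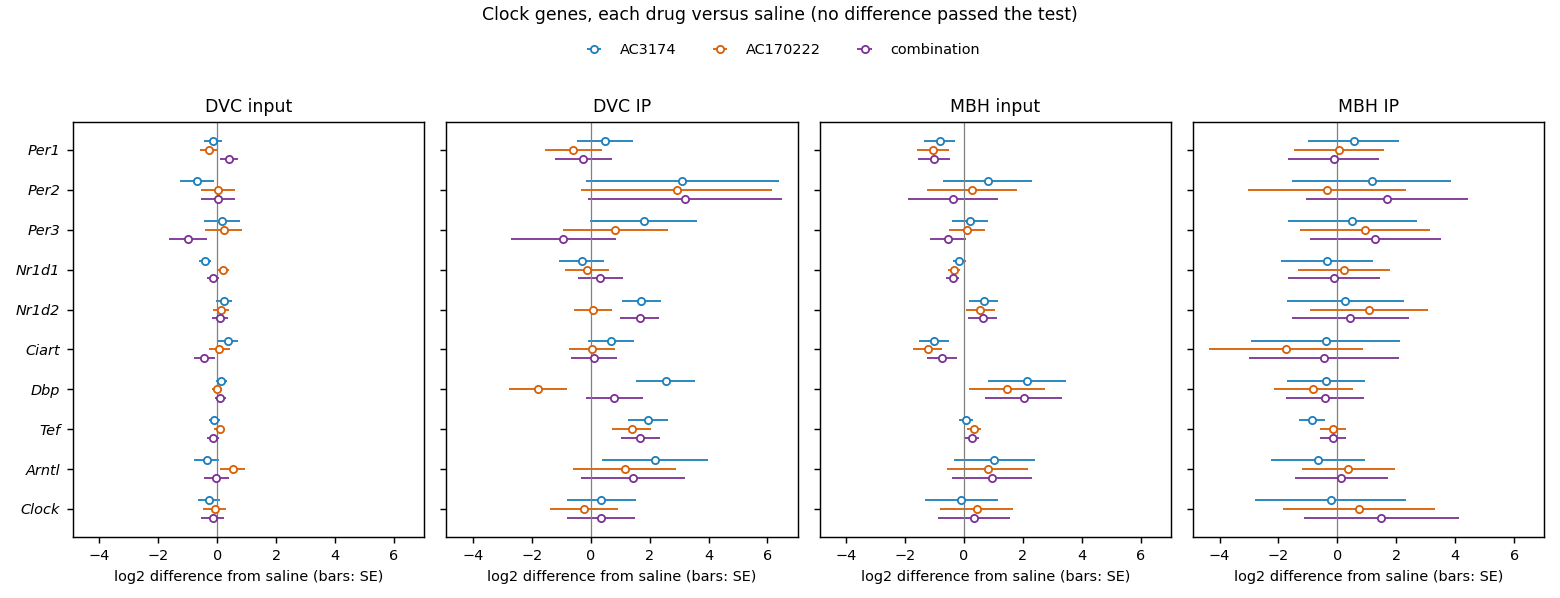
Fitted log2 difference of each member from saline with its SE, for AC3174, AC170222 and the combination, in DVC input, DVC IP, MBH input and MBH IP. No point passed the edgeR test; in DVC IP Dbp lies at 2.54 with AC3174 and -1.80 with AC170222, and in DVC input most points lie close to 0.

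In input RNA no drug value passed the edgeR test, and the groups did not overlap in 9 of 60 member comparisons of DVC input and 8 of 60 of MBH input, 17 of 120 in all, where 10.3% of all gene comparisons did so. Nr1d1 in DVC input held 90.7, 83 and 90.8 CPM with saline, 50.1, 68.1 and 80.1 with AC3174 and 105, 101 and 99.8 with AC170222. The AC3174 libraries were all lower and the AC170222 libraries all higher than saline, where 4.69% and 4.65% of 17477 genes did so, with log2 differences of -0.41 ± 0.20 (edgeR adjusted p = 0.993, and -0.58 with the set as a covariate) and 0.21 ± 0.20 (adjusted p = 1). Between the single drugs Nr1d1 differed by -0.62 ± 0.20 (AC3174 lower, unadjusted p = 0.00982, edgeR adjusted p = 1), and by -0.79 with the set as a covariate. Per1, an immediate responder to cAMP signalling, held 22.7, 26.7 and 28.9 CPM with the combination in DVC input, above all libraries of AC3174 (18.6, 15.7 and 20.1) and of AC170222 (16.7, 16.5 and 16.8) but overlapping saline (20.4, 26.4 and 14). Those groups separated upwards for 3.3% and 3.72% of genes, and the Per1 log2 differences were 0.55 ± 0.30 and 0.68 ± 0.30 (edgeR adjusted p = 1 and 0.929), the latter 0.83 with the set as a covariate. Ciart was lower with the combination than with AC3174 in DVC input (-0.80 ± 0.35, unadjusted p = 0.0437, edgeR adjusted p = 1).

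In MBH input Dbp held 12.8, 0.0181 and 42.7 CPM with saline, 81.9, 96.9 and 69.8 with AC3174, 18.7, 55.4 and 81.8 with AC170222 and 82.1, 82.4 and 65 with the combination. The AC3174 and combination libraries all lay above saline, where 6.26% and 11.5% of 16622 genes were higher without overlap. The AC3174 log2 difference was 2.14 ± 1.32 (edgeR adjusted p = 0.651), 1.56 without saline replicate 2, 3.69 without saline replicate 3 and 1.43 with the set as a covariate. Nr1d1 held 97.5, 107 and 99.6 CPM with the combination, 131, 143 and 119 with saline and 111, 110 and 133 with AC3174. Its log2 differences with the combination were -0.39 ± 0.22 from saline (edgeR adjusted p = 0.659) and -0.22 ± 0.22 from AC3174 (adjusted p = 1). Per3 with the combination (16.9, 29.4 and 23.1 CPM) differed by -0.76 ± 0.62 from AC3174 and -0.63 ± 0.62 from AC170222 (edgeR adjusted p = 1 for each). For Nr1d1 against saline and Per3 against AC170222, drug and library set are not separated in these values. Ciart with AC170222 against saline was at -1.24 ± 0.50 (unadjusted p = 0.0322, edgeR adjusted p = 0.709). The drug effect in input differed between regions for 0 members, with 1 member at an unadjusted p under 0.05 for each treatment, where 0.0215%, 0.0161% and 0.0161% of 18576 genes were called for AC3174, AC170222 and the combination. An unadjusted p under 0.05 was reached by 1525, 1324 and 1600 genes in the same comparisons. In MBH IP Tef with AC3174 (480, 142 and 287 CPM) against saline (540, 426 and 675) gave the smallest SE among the members, with a log2 difference of -0.86 ± 0.45 (adjusted p = 1). The other 9 members there had SE of 1.33 or more on the log2 scale, so that changes of a few fold were not detectable.

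Arntl was also set against each other member across the 12 input libraries of a region, as deviations from the treatment mean of log2(CPM + 2). Of 18 such relations 0 passed the exact permutation test within treatments after adjustment. In MBH input Arntl and Dbp had a positive coefficient (Pearson r = 0.92, exact permutation p = 0.0370, adjusted p = 0.347, Spearman rho = 0.76, p = 0.0856). Without saline replicate 2, r was 0.67 (exact permutation p = 0.116), and without the 2 libraries farthest from the median of Arntl it was 0.74. In DVC input the coefficient was negative, with r = -0.68 (exact permutation p = 0.0772, adjusted p = 0.347, rho = -0.63, p = 0.0926), but r was 0.06 without the 2 farthest libraries, so that this relation rests on them. The difference between the regions was not tested.

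**Figure D5:**
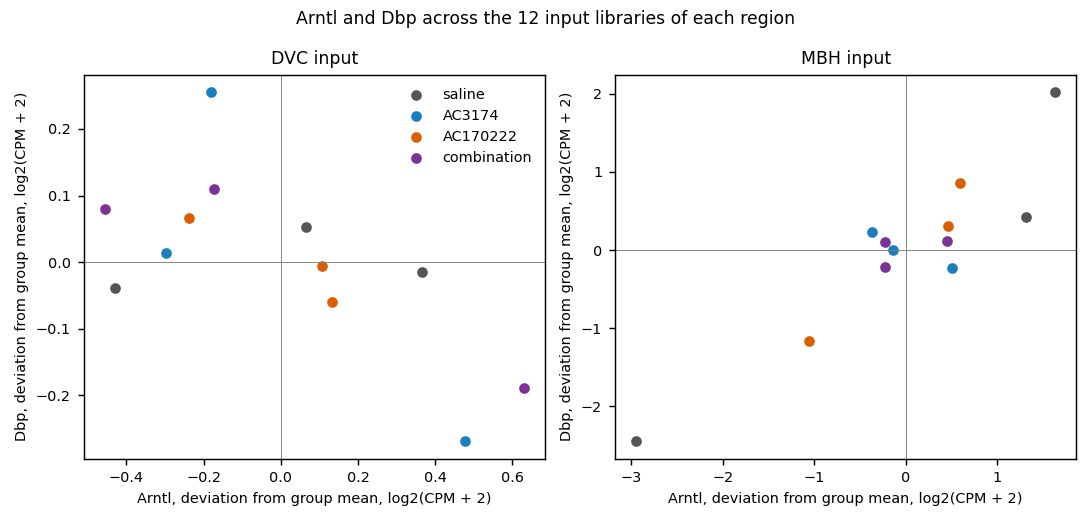
Deviation of Dbp (y axis) against that of Arntl (x axis) from the treatment mean of log2(CPM + 2), for the 12 input libraries of the DVC (left) and the MBH (right), coloured by treatment. The MBH slope (r = 0.92) is set largely by saline replicate 2 at the lower left, without which r is 0.67; the DVC cloud has r = -0.68.

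Arntl and Nr1d1, its repressor, had r = 0.72 in DVC input (exact permutation p = 0.0772, adjusted p = 0.347, rho = 0.63), which fell to 0.32 without the 2 farthest libraries. Arntl and Clock had r = 0.92 in MBH input (exact permutation p = 0.0733, adjusted p = 0.347, rho = 0.70) and 0.34 without saline replicate 2. When each member's DVC input was set against the MBH input of the same treatment and number, 0 of 10 passed. The highest support was for Arntl (r = 0.55, exact permutation p = 0.0301, adjusted p = 0.301, rho = 0.51), which was 0.40 without saline replicate 2.

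Over all 24 input libraries, the genes most like each member were named from the 8913 genes that averaged 10 CPM or more, as a description in which points share library, depth and region. Dbp was closest to Pgp (r = 0.977, and 0.955 without MBH input saline replicate 2) and Pip4p1 (0.961 and 0.923). Arntl was closest to Crk (0.947 and 0.886), Clock to Pcdhgc4 (0.953 and 0.900), Per1 to 6330403K07Rik (0.926 and 0.845), Ciart to Bax (0.881 and 0.811) and Nr1d2 to Klhl8 (0.879 and 0.799). Per2 was closest to Lrrc59 (0.876 and 0.817), Tef to Ptgr2 (0.867 and 0.852), Per3 to Lsm6 (0.843 and 0.812) and Nr1d1 to Mob4 (0.813 and 0.813). No member had another member as its closest gene. Among the members themselves, r was 0.848 for Dbp and Arntl (0.690 without that library), 0.837 for Arntl and Clock (0.639) and -0.790 for Per3 and Nr1d2 (-0.726).

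The rest of the clock pathway was followed as a list of 19 genes. In DVC IP against input, 5 of 19 were lower and 0 higher, beside 13.6% and 6.8% of all genes, with a median of -0.33 against -0.37 over all genes. They were Csnk1e and Csnk1d, kinases of the Period proteins (log2 differences -1.73 ± 0.33, edgeR adjusted p = 0.00146, and -0.51 ± 0.16, 0.0320), Npas2, which can stand in for CLOCK (-5.19 ± 1.32, 0.0107), Nfil3, the D-box repressor that opposes DBP (-3.83 ± 1.28, 0.0398), and Timeless (-3.56 ± 0.95, 0.0129). In DVC IP the median was 0.00325 CPM for Npas2, 0.0289 for Nfil3 and 0.083 for Timeless, with 6, 3 and 1 of 12 libraries at 0. Their DVC input medians were 7.37, 16.1 and 0.93 CPM. The fitted sizes of Npas2, Nfil3 and Timeless thus rest on values near 0. Between inputs, Rora was higher in the DVC (0.86 ± 0.17, adjusted p = 0.00119) and Rorb (-0.80 ± 0.20, 0.00669) and Arntl2 (-1.25 ± 0.37, 0.0189) were lower, 1 and 2 of 19 where 11.7% and 10.2% of all genes were called. Rora and Rorb encode activators that share the ROR element with the REV-ERBs. In IP, Timeless was lower in the DVC (-5.97 ± 1.63, 0.0349), at medians of 0.083 CPM in DVC IP and 3.41 in MBH IP. In the MBH pull-down and in the drug comparisons 0 of the 19 passed.

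Glucocorticoid signalling and neuronal activity can both induce Per1, so lists of their targets were read beside the members. Of 12 glucocorticoid-responsive genes, 5 were higher and 0 lower in DVC than in MBH input, where 11.7% of all genes were higher and 10.2% lower, with all 12 on the positive side and a median of 0.71. Per1 (-0.49, edgeR adjusted p = 0.109) and Per2 (-0.77, 0.429) were not called there, and a relation of either to the list was not tested. In DVC IP against input 1 of the 12 was higher and 4 were lower, beside 6.8% and 13.6% of all genes. Of 13 activity-induced genes, 2 (Junb and Egr1) were lower in DVC input than in MBH input (10.2% of all genes), and 2 (Nr4a1 and Npas4) of the 12 tested were lower in DVC IP than in input (13.6%). In AC3174 against saline in DVC IP, 0 genes of either list passed. Nr4a1, an immediate-early nuclear receptor, was however called for the change of the DVC IP-to-input ratio with each treatment (edgeR adjusted p = 0.00035 for AC3174, 0.00079 for AC170222 and 0.000662 for the combination), as 1 of the 7, 5 and 7 genes called. No read of it was counted in any saline IP library of the DVC (0, 0 and 0), whereas the 9 drug-treated ones held 6.54 to 29.3 CPM. The fitted size therefore depends on the prior count and is not given. DVC inputs held 9.99 to 16.5 CPM with saline and 1.67 to 20.6 with the drugs, overlapping the drug-treated IP libraries. The lower Nr4a1 in DVC IP, a mean over the 4 treatments, thus rests on the saline libraries at 0.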

How the data were processed

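One table of the authors, as deposited, gives the raw counts of 48 libraries by Ensembl gene. Per the submitters' processing notes the authors used TopHat2 2.0.11, HTSeq 0.6.1p1 and GRCm38; per the labels' protocols RNA was amplified with the SMART-Seq v4 kit and tagmented. Replicates differed beyond sampling noise (lowest chi-square per degree of freedom 130.1 over 48 pairs). Every row held an Ensembl gene identifier, and 36345 of the 38293 identifiers matched GENCODE M21.

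Groups followed the labels. Counts were fitted with edgeR 4.0.16 (R 4.3.3) by its quasi-likelihood F test with TMM scaling and filterByExpr, 2-sided, Benjamini-Hochberg over all genes tested, called at an adjusted p under 0.05, and the script was tested on simulated data. CPM were computed from library totals after TMM scaling over all 48 libraries. Fits with limma 3.58.1 (voom), DESeq2 1.42.0, its size factors, no filter, the library set as a covariate, all 48 libraries together, the replicate number as a block, each replicate number left out, and IP libraries under 12000 genes left out were the alternatives. Leaving out a treatment's replicate number took out all its libraries in that fit, across kinds and regions. The comparison of AC3174 with AC170222 was added after seeing the data. Depth limits values near 0: 3 counts are 0.138 CPM of the unscaled total in the shallowest library, which covers counting error only.

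All 10 members were named whatever their values, and other genes were named where they belong to a list and passed the test. The members and lists were chosen with earlier results of these data known, so list counts are descriptions and no list was tested as a set.

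The protocol takes input and IP from one homogenate, which is where a pairing by number comes from, but deviations of same-numbered input and IP libraries did not run together (median r 0.0128 in the DVC and 0.00308 in the MBH, 0 of 12 pairs over 0.1 in each). DVC and MBH libraries of one number exceeded 0.1 in 4 of 12 input pairs and 6 of 12 IP pairs. Across treatments, MBH IP libraries of one number exceeded 0.1 in 14 of 18 pairs (median r 0.156), against 2 or 3 of 18 in each of the other 3 sets.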

Additional observations from a re-analysis of the deposited data

How the results depend on the processing

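Counts below are members called (edgeR adjusted p under 0.05 unless another tool is named). For DVC IP against input the count of 2 became 4 with DESeq2, 5 with limma-voom, 1 with the replicate block, 3 without the IP library under 12000 genes, and 1 to 3 without 1 replicate number. For DVC against MBH input, 2 became 4 with DESeq2 and 2 to 4 without 1 replicate number. For DVC against MBH IP, 2 became 3 with DESeq2 (Per3 added, -2.58, adjusted p = 0.00899), 1 with limma-voom, 1 with the replicate block, 1 without the IP libraries under 12000 genes, and 0 to 2 without 1 replicate number. For the region difference of the pull-down, 0 became 2 with DESeq2, 1 with DESeq2 size factors in edgeR, 1 with the library set as covariate, 1 with limma-voom, 2 without the sparse IP libraries, and 0 to 1 without 1 replicate number. In the MBH pull-down and in its change with AC3174, 0 became 0 to 1 without 1 replicate number; for Per3, the change of IP-to-input ratio with AC3174 in the MBH, 0.22 in the full fit, ran from -7.74 (without AC3174 replicate 1, edgeR adjusted p = 0.0453) to 2.31. DESeq2 called 1 member, Dbp, for the change of the DVC ratio with AC3174, 1 for AC3174 against saline and 1 for AC3174 against AC170222 in DVC IP. Of the DVC to MBH relations 0 to 1 passed without 1 replicate number (Arntl, r = 0.637, exact permutation adjusted p = 0.0463, without AC170222 replicate 1). The cause of these changes was not tested. The pairing by replicate number, fitted as a block, ended the calls of Per3 in DVC IP and of Dbp between regions in IP, and changed no other member's call. Over all genes, the calls for DVC IP against input were 3776 with edgeR, 6091 with DESeq2 and 6412 with limma-voom. Those for DVC against MBH input were 4067, 5937 and 5548 of 18576 genes. Those for MBH IP against input were 79, 1846 and 493, those for DVC against MBH IP 1015, 3230 and 1408, and those for the region difference of the pull-down 852, 3270 and 1623. DESeq2 called 1904 genes for the change of the DVC ratio with AC3174. In DVC IP it called 1144 genes for AC3174 against saline and 669 for AC3174 against AC170222. Of 7300 member values under alternatives, 30 newly passed, 23 no longer passed, 506 that passed in neither fit changed sign, such as Nr1d2 between regions in IP (-0.48 to 1.14 with limma-voom), and 1 that passed in one fit did so.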
